A study of Homo sapiens with 20 samples.

Results

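The genes described here are 10 components of the machinery that controls the passage from G1 to S phase, and they were taken by symbol from a table of 58870 genes, in which all 10 were found. They are the cyclin-dependent kinases CDK6, CDK4 and CDK2, the D-type cyclins CCND1 and CCND3, the retinoblastoma protein RB1, and the inhibitors CDKN1A, CDKN1B, CDKN1C and CDKN2A. Beside their mRNA, the consensus peaks of FRA1 Cut&Run that overlapped these genes or lay within 10 kb of them were taken, which were 43 of 54563 peaks. The samples were A375 and 1205Lu cells, both human melanoma cell lines, and no other allele, agent or time was given for any group. Each cell line received non-targeting siRNAs (si-NT) or siRNAs against human FRA1 (si-FOSL1), with 3 samples in each of these groups and 12 in all. Cut&Run was performed on 3 samples per cell line with a FRA1 antibody and on 1 per cell line with IgG, 8 in all, and no siRNA is named for them. FRA1, the product of FOSL1, is a FOS family protein that binds DNA with a JUN partner as the AP-1 complex. The number of siRNAs, their sequences and the time after transfection are not given in the sources used here. Each condition rests on these cell lines alone, and nothing states that the replicates came from separate cultures, so that p-values measure the spread between these samples, which may be technical.

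In G1, D-type cyclins bind CDK4 or CDK6 and begin the phosphorylation of RB1. Phosphorylated RB1 releases E2F transcription factors, which switch on cyclin E, cyclin A and the genes of DNA replication, and CDK2 bound to cyclin E completes the step. The INK4 inhibitors, such as p16 from CDKN2A, bind CDK4 and CDK6, while the CIP/KIP inhibitors p21 (CDKN1A), p27 (CDKN1B) and p57 (CDKN1C) bind cyclin and kinase complexes. Loss of CDKN2A and gain of CCND1 or CDK4 are common lesions of melanoma, which is why this circuit is studied in the disease.

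FOSL1 mRNA was lower in all silenced samples than in any control of their line. In A375 cells it was 413, 424 and 408 CPM (counts relative to the library's TMM-scaled total) in the si-NT samples and 25.7, 25.7 and 26.0 CPM after silencing, which left 6.19% of the control level. Levels in 1205Lu cells were 492, 484 and 478 CPM in the control samples and 69.4, 70.9 and 65.1 CPM after silencing, which left 14.0%. The log2 fall was 1.19 ± 0.04 (SE) smaller in 1205Lu cells (edgeR adjusted p = 1.2e-16). The RNA libraries held between 20573412 and 32518903 counts, and the FRA1 libraries held 3354095 to 5316527 counts in peaks in A375 cells and 583750 to 897407 in 1205Lu cells. Of 9 melanocyte markers, 3 reached 1 CPM in A375 and 4 in 1205Lu cells with si-NT, and they differed between the lines in both directions. SOX10 was at 43.96 ± 0.434 CPM in A375 and 913.7 ± 15.6 CPM in 1205Lu cells and S100B at 0.992 ± 0.146 and 427 ± 8.65 CPM, while MITF was at 52.2 ± 2.37 and 3.55 ± 0.233 CPM (SD, n = 3). The pigment genes PMEL, MLANA, TYR, DCT and TYRP1 were each under 1 CPM in both lines with si-NT. Of the 4 leukocyte markers none reached 1 CPM in any group. The summed level of 6 fibroblast markers in A375 cells was 14.5 to 15.5 CPM in controls and 36.1 to 38.0 CPM after silencing, mostly COL1A1 (11.1 and 21.8 CPM) and COL3A1 (1.11 and 9.46 CPM). In 1205Lu cells the sum was 192 to 200.0 and 183 to 191 CPM, nearly all of it PDGFRA (192.4 and 184 CPM), with DCN and LUM under 1 CPM. Their part in the differences between groups was not tested.

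With silencing of FRA1 the kinases CDK6, CDK4 and CDK2 fell and the inhibitors CDKN1A and CDKN1C rose in both lines, although the fall of CDK4 in 1205Lu cells was lost under most alternatives. Calls rest on an adjusted p under 0.05, taken over all genes tested, and every log2 difference of silencing is si-FOSL1 minus si-NT. In A375 cells 3 of the 10 genes were called higher and 4 lower, where 25.7% of all genes tested were called higher and 25.1% lower. In 1205Lu cells 3 of the 9 genes tested were called higher and 4 lower, where 20.6% and 19.9% of all genes tested were. CDKN2A, with 3 to 8 counts per 1205Lu sample, did not pass the filter on low counts there. Whether these genes were called more often than others was not tested. The median log2 difference of the members was 0.0040 in A375 and -0.06 in 1205Lu cells, beside -0.0026 and -0.0048 for all genes tested. With an added limit of 1 on the absolute log2 difference, CDK6, CDKN1A and CDKN1C were called in A375 cells and CDKN1C in 1205Lu cells, where 5.56% and 3.13% of all genes passed both limits.

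**Figure D1:**
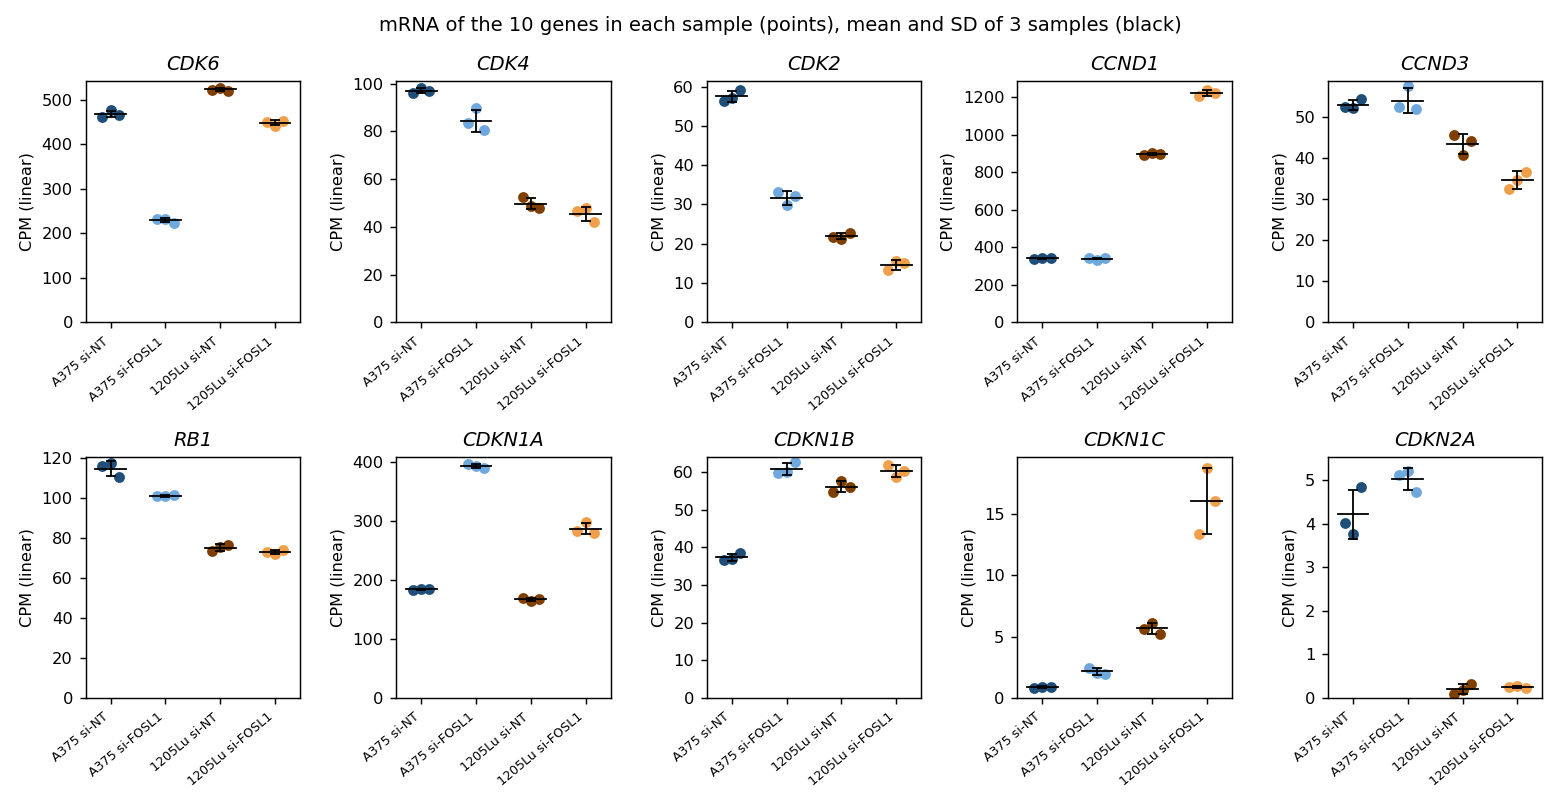
CPM of the 10 genes (vertical axes, linear and starting at 0) in each of the 12 RNA samples by group, with the mean and SD of 3 samples in black. CDK6, CDK4 and CDK2 were lower and CDKN1A, CDKN1B and CDKN1C higher in all 3 silenced samples than in any control of the same line. The CDKN1B difference in 1205Lu cells was not called. How many of all genes had groups without overlap was not counted.

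CDK6, at chr7:92604921-92836573 on the minus strand of GRCh38, encodes the D-cyclin kinase that was the most abundant of the kinases per kb of exon in both lines with si-NT. The 3 control samples in A375 cells had 463, 477 and 466 CPM, against 232, 233 and 224 CPM in the silenced samples. The groups did not overlap, and CDK6 fell 2.05-fold (log2 difference -1.03 ± 0.02, SE, edgeR adjusted p = 5.3e-21). In RNA from a whole culture, fewer cells with a transcript and less of it per cell cannot be told apart. For 1205Lu cells the si-NT values were 522, 528 and 521 CPM and the si-FOSL1 values 450.1, 443 and 454 CPM. These groups did not overlap either, and the fall was 1.18-fold (log2 difference -0.24 ± 0.02, adjusted p = 1.4e-09). The log2 difference in 1205Lu cells minus that in A375 cells was 0.81 ± 0.03 (interaction of cell line and silencing, adjusted p = 8.6e-17), where 31.9% of all genes tested differed between the lines. Other tests, normalizations, filters and fits, and leaving out each sample, kept CDK6 called in both lines and in the interaction, whereas the added limit of 1 on the absolute log2 difference kept it in A375 cells alone.

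A peak counted as enriched over IgG when every FRA1 sample reached 10 counts and also 4-fold the IgG count after 1 was added to it, with counts as deposited and no test, because each line had 1 IgG sample. By this rule 27 of the 43 peaks were enriched in A375 cells, where 57.4% of all peaks were, and 4 in 1205Lu cells, where 7.09% were. They shared 3 peaks, and 15 were enriched in neither line. With counts scaled to the total in peaks of the IgG sample, no peak near these genes met the limit in either line. These totals hold the FRA1 signal in peaks itself, so this scaling cannot separate library depth from enrichment. The IgG libraries held 383994 counts in peaks in A375 and 314569 in 1205Lu cells. The FRA1 libraries held 3354095 to 5316527 and 583750 to 897407, so the limit without scaling is not alike in the 2 lines. The numbers of enriched peaks hold for counts as deposited and do not compare binding between the lines. Of the 10 genes, 9 had a peak within 10 kb, and CDKN1C had none. CDK6 alone had 21 peaks, of which 17 lay in introns, and its gene body spans 231653 bases. Of these 21 peaks, 15 were enriched in A375 and 3 in 1205Lu cells. The strongest, at chr7:92752005-92752876 in an intron, held 464, 791 and 645 FRA1 counts beside 19 IgG counts in A375 cells. In 1205Lu cells the same peak held 39, 57 and 40 FRA1 counts beside 5 IgG counts. The peak at chr7:92632900-92634113, also intronic, held 237, 359 and 302 counts beside 15 in A375 cells and 82, 182 and 152 beside 11 in 1205Lu cells. It was the CDK6 peak with the highest median FRA1 count in 1205Lu cells. The peak at chr7:92717724-92718680 was the single peak near these genes enriched in 1205Lu cells and not in A375 cells, and it is named for that, after its values were seen. It held 68, 94 and 78 counts beside 7 in 1205Lu cells and 31, 42 and 38 beside 11 in A375 cells.

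Of the 3 peaks with a CDK6 transcription start within 3 kb, called promoter peaks here, 2 were enriched in A375 cells and none in 1205Lu cells. The peak at chr7:92831492-92832537, with its centre 1903 bases from the nearest coding start, held 216, 331 and 279 counts beside 11 in A375 cells and 15, 40 and 26 beside 8 in 1205Lu cells. The peak at chr7:92722685-92723814, near a start inside the gene, held 71, 129 and 91 beside 14 in A375 cells and 7, 2 and 5 beside 4 in 1205Lu cells. Over the 21 peaks the median FRA1 count ran from 15 to 645 in A375 cells and from 3 to 152 in 1205Lu cells.

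**Figure D2:**
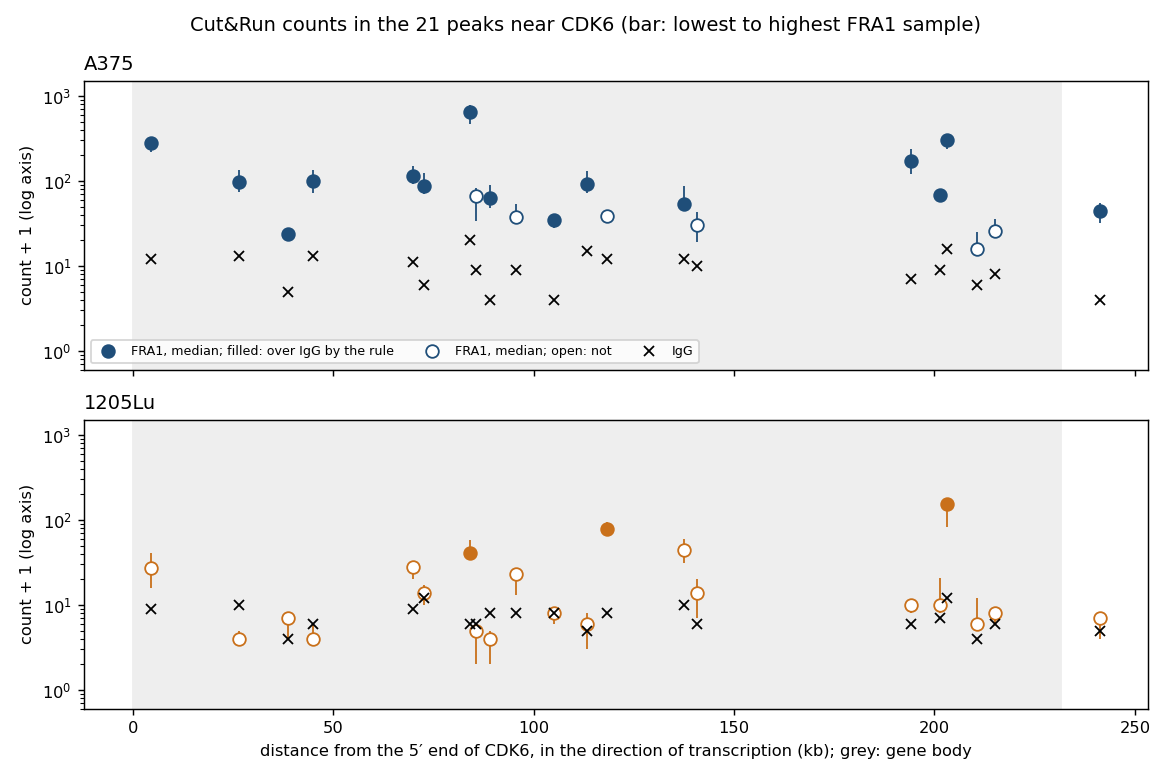
Cut&Run counts plus 1 (vertical axes, log scale) in the 21 peaks near CDK6 against their distance in kb from the 5′ end of the gene, for A375 (top) and 1205Lu cells (bottom). Circles are medians of 3 FRA1 samples with a bar from lowest to highest, filled where the rule over IgG was met, and crosses are IgG. In A375 cells 15 circles are filled and in 1205Lu cells 3.

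The AP-1 sequence TGAGTCA or its reverse complement TGACTCA lay within 100 bases of the centre in 14 of the 43 peaks, which is 32.6% (95% Wilson interval 20.5 to 47.5), against 28.6% of all peaks. Among the 27 enriched in A375 cells it lay there in 11, or 40.7% (24.5 to 59.3), against 34.0% of all peaks enriched in A375 cells. The shares of all peaks include the peaks near these genes. Of the 43 peaks, 21 lie near CDK6, so they are not independent draws, and whether the shares differ was not tested. Windows of 101 bases around the copy nearest the centre are shown for the named CDK6 peaks that hold it, because CDK6 had the largest fall of the 10 genes in A375 cells and about as many peaks as the other 9 together. The sequences are of the plus strand of GRCh38, and capitals mark the AP-1 sequence.
CDK6 intron, chr7:92752390-92752490, strongest in A375: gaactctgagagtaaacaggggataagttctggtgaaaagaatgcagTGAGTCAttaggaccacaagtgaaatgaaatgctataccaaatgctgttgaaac
CDK6 intron, chr7:92633508-92633608, strongest in 1205Lu: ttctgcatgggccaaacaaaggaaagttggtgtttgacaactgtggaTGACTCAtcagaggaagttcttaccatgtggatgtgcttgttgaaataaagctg
CDK6 intron, chr7:92717682-92717782, enriched in 1205Lu and not in A375: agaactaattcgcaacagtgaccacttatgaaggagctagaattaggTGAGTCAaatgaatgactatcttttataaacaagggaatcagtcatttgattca
CDK6 promoter peak inside the gene, chr7:92722662-92722762: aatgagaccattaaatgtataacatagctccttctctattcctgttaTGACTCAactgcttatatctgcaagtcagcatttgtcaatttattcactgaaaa
The copy in the strongest A375 peak lay 0 bases from its centre and the copy in the strongest 1205Lu peak 52 bases, while those in the other windows lay 470 and 537 bases away, near an edge of the peak. The promoter peak at chr7:92831492-92832537 held no copy.

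The 5 protein-coding genes whose log2 CPM followed CDK6 most closely over the 12 samples, out of 9329 with a mean of at least 10 CPM, were CHAF1B, SEC16A, MGAT4B, RNASEH1 and RUNX1. Their root mean square distance from CDK6 after centring lay between 0.0992 and 0.108 on the log2 scale. On this scale CHAF1B differed by -0.88 in A375 and -0.39 in 1205Lu cells, beside -1.03 and -0.22 for CDK6. SEC16A differed by -0.984 and -0.0663, MGAT4B by -0.856 and -0.395, RNASEH1 by -0.796 and -0.309, and RUNX1 by -0.809 and -0.211.

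CDK4, the partner kinase of CDK6 at chr12:57747727-57756013, showed a smaller difference. Its level in A375 cells was 96.1, 98.4 and 96.9 CPM in the control samples and 83.4, 89.7 and 80.6 CPM after silencing, and it fell 1.15-fold (log2 difference -0.21 ± 0.04, adjusted p = 7.5e-05). Samples of 1205Lu cells gave 52.3, 48.8 and 48.0 CPM for si-NT and 46.5, 47.7 and 42.2 CPM for si-FOSL1, a log2 difference of -0.15 ± 0.05 with an adjusted p of 0.038. The 1205Lu call was lost in 8 of 12 alternatives, among them DESeq2 (adjusted p = 0.0877), and without si-FOSL1 replicate 3 the log2 difference was -0.09 (adjusted p = 0.249). CDK4 shares 1369 exonic bases with TSPAN31 on the opposite strand, and the libraries were strand-specific but the strand setting of the counting is not given in the sources used here. The difference between the lines, 0.07 ± 0.07, was not called (adjusted p = 0.47). Its promoter peak at chr12:57751896-57752664, 4 bases from a CDK4 start, held 43, 81 and 59 FRA1 counts beside 12 IgG counts in A375 cells and was not enriched. The enriched peak within 10 kb, at chr12:57744380-57745349, lay 159 bases from the start of TSPAN31.

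CDK2, the cyclin E kinase at chr12:55966781-55972789, fell in both lines. The 3 si-NT samples of A375 cells had 56.3, 57.1 and 59.1 CPM and their si-FOSL1 samples 33.3, 29.8 and 32.1 CPM, and it fell 1.82-fold (log2 difference -0.86 ± 0.05, adjusted p = 1.1e-12). Levels in 1205Lu cells were 21.7, 21.2 and 22.7 CPM in the control samples and 13.3, 15.5 and 15.02 CPM after silencing, and it fell 1.52-fold (log2 difference -0.60 ± 0.08, adjusted p = 2.8e-06). Neither pair of groups overlapped. The difference between the lines was 0.27 ± 0.09 (adjusted p = 0.023), and this call was lost with upper-quartile normalization (0.0618), without 1205Lu si-FOSL1 replicate 2 (0.0726) and without A375 si-FOSL1 replicate 2 (0.054). The largest peak near it, at chr12:55973191-55974495, held 400, 551 and 471 FRA1 counts beside 32 in A375 cells and 76, 182 and 139 beside 11 in 1205Lu cells. Its centre lay 70 bases from the start of the neighbouring gene RAB5B and 2723 bases from the nearest CDK2 start. It held an AP-1 sequence 101 bases from the centre.
CDK2 and RAB5B, chr12:55973692-55973792: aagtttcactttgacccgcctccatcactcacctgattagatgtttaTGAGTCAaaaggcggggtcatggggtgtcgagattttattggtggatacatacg
The peak at the main CDK2 start, chr12:55966670-55967182, held 17, 29 and 22 counts beside 7 in A375 cells and was not enriched.

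CCND1, cyclin D1 at chr11:69641156-69654474, was the most abundant of the 10 genes per kb in 3 of the 4 groups, and it differed between the lines in its response. For A375 cells the si-NT values were 337, 343 and 344 CPM and the si-FOSL1 values 341, 334 and 344 CPM, and these groups overlapped (log2 difference -0.01 ± 0.02, adjusted p = 0.67). Samples of 1205Lu cells gave 893, 902 and 898 CPM for si-NT and 1208, 1241 and 1223 CPM for si-FOSL1, and it rose 1.35-fold (log2 difference 0.43 ± 0.01, adjusted p = 3.7e-15). The difference between the lines was 0.45 ± 0.03 (adjusted p = 2.6e-13). The single peak within 10 kb, 1823 bases before its start, held 16, 39 and 25 counts beside 7 in A375 cells and 6, 2 and 7 beside 5 in 1205Lu cells, and was enriched in neither.

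CCND3, cyclin D3 at chr6:41934934-42050357, moved in 1205Lu cells in the opposite direction to CCND1. The 3 control samples in 1205Lu cells had 45.4, 40.7 and 44.1 CPM, against 32.4, 34.7 and 36.6 CPM in the silenced samples, and it fell 1.27-fold (log2 difference -0.35 ± 0.06, adjusted p = 5e-05). The 3 si-NT samples of A375 cells had 52.4, 52.0 and 54.2 CPM and their si-FOSL1 samples 52.3, 57.4 and 51.9 CPM, with a log2 difference of 0.02 ± 0.05 and overlapping groups (adjusted p = 0.76). The difference between the lines was -0.36 ± 0.08 (adjusted p = 0.00077). Of its 5 peaks, 3 were enriched in A375 and none in 1205Lu cells. The intron peak at chr6:41966585-41967528 held 203, 357 and 293 FRA1 counts beside 10 in A375 cells, and 5, 5 and 3 beside 5 in 1205Lu cells, so that there it did not exceed IgG. The promoter peak at chr6:41941834-41942505 held 58, 68 and 52 beside 12 in A375 cells and 11, 14 and 16 beside 8 in 1205Lu cells. Both held the AP-1 sequence, and they are printed as the sites with the most FRA1 counts near this gene.
CCND3 intron, chr6:41967127-41967227: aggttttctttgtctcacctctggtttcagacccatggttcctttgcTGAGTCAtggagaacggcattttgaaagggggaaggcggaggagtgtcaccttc
CCND3 promoter peak, chr6:41942176-41942276: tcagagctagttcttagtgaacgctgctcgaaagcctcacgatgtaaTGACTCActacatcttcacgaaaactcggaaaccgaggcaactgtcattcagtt

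RB1, the pocket protein that the D-cyclin kinases phosphorylate, at chr13:48303744-48599436, fell in A375 cells by a small amount. Its level was 116, 117 and 110.3 CPM in the control samples and 101, 101 and 102 CPM after silencing, a 1.14-fold fall without overlap (log2 difference -0.19 ± 0.03, adjusted p = 4.1e-05). Levels in 1205Lu cells were 73.3, 75.6 and 76.5 CPM in the control samples and 73.1, 72.1 and 73.8 CPM after silencing, with overlapping groups (log2 difference -0.06 ± 0.04, adjusted p = 0.25). The difference between the lines was 0.14 ± 0.05 (adjusted p = 0.028), and the call was lost with DESeq2 (0.064), with upper-quartile normalization (0.16), without 1205Lu si-NT replicate 1 (0.0572) and without A375 si-NT replicate 2 (0.0655). Of 3 peaks, the intron peak at chr13:48559743-48560193 was enriched in A375 cells with 57, 102 and 65 counts beside 2, and it held 3, 1 and 4 beside 1 in 1205Lu cells. The peak at the RB1 start held 16, 28 and 34 beside 5 in A375 cells and was not enriched.

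CDKN1A, which encodes p21, at chr6:36676460-36687337, rose in both lines and was the member with the smallest adjusted p in A375 cells. The 3 control samples in A375 cells had 184, 185 and 184 CPM, against 397, 394 and 390.4 CPM in the silenced samples, a 2.13-fold rise (log2 difference 1.09 ± 0.02, adjusted p = 1.8e-21). For 1205Lu cells the si-NT values were 170.0, 164 and 167 CPM and the si-FOSL1 values 283, 298 and 279.9 CPM, a 1.70-fold rise (log2 difference 0.76 ± 0.03, adjusted p = 1.1e-14). The rise was smaller in 1205Lu cells (difference -0.32 ± 0.04, adjusted p = 9.2e-08). Its promoter peak at chr6:36678377-36681054 held 211, 345 and 303 FRA1 counts beside 22 in A375 cells. In 1205Lu cells it held 56, 87 and 79 beside 28, under the 4-fold limit over IgG. It held 3 copies of the AP-1 sequence, the nearest 276 bases from its centre.
CDKN1A promoter peak, chr6:36679389-36679489: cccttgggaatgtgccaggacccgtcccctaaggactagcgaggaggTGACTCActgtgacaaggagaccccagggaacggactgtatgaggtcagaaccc

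CDKN1B, which encodes p27, at chr12:12685498-12722369, rose in A375 cells. Its level was 36.6, 37.0 and 38.4 CPM in the control samples and 59.7, 60.1 and 62.7 CPM after silencing, a 1.62-fold rise (log2 difference 0.70 ± 0.05, adjusted p = 8.9e-12). Samples of 1205Lu cells gave 54.7, 57.5 and 55.9 CPM for si-NT and 61.9, 58.5 and 60.2 CPM for si-FOSL1, and this difference did not pass (log2 difference 0.09 ± 0.04, adjusted p = 0.13). The difference between the lines was -0.60 ± 0.06 (adjusted p = 2.4e-08). The mean with si-FOSL1 was 60.8 ± 1.63 CPM in A375 and 60.2 ± 1.67 CPM in 1205Lu cells (SD, n = 3), from 37.4 ± 0.935 and 56.1 ± 1.43 CPM with si-NT. Of its 5 peaks, 3 were enriched in A375 cells and none in 1205Lu cells, and for each of the 5 the nearest coding start belonged to GPR19 or APOLD1. The strongest, at chr12:12725091-12726130, lay 321 bases from the start of APOLD1 and held 63, 105 and 99 counts beside 14 in A375 cells.

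CDKN1C, which encodes p57, at chr11:2883213-2885775, had low counts and rose in both lines. In A375 cells it had 18, 23 and 22 counts with si-NT and 81, 49 and 49 with si-FOSL1, or 0.814, 0.910 and 0.912 CPM against 2.48, 2.05 and 1.98 CPM. This was a 2.46-fold rise (log2 difference 1.298 ± 0.28, adjusted p = 0.00044). The 3 si-NT samples of 1205Lu cells had 5.65, 6.14 and 5.18 CPM and their si-FOSL1 samples 13.3, 18.8 and 16.0 CPM, a 2.80-fold rise (log2 difference 1.49 ± 0.13, adjusted p = 9.6e-09). The groups did not overlap in either line, and the difference between the lines was 0.20 ± 0.27 (adjusted p = 0.64).

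CDKN2A, at chr9:21967752-21995301, encodes p16 and, from another first exon, ARF, and the counts do not separate these products. Levels in A375 cells were 4.03, 3.76 and 4.85 CPM in the control samples and 5.11, 5.22 and 4.74 CPM after silencing, with overlapping groups (log2 difference 0.25 ± 0.15, adjusted p = 0.19). In 1205Lu cells it had 3, 4 and 8 counts with si-NT and 5, 6 and 5 with si-FOSL1. CDKN2A shares 593 exonic bases with CDKN2B-AS1 on the opposite strand. Its single peak, at chr9:21974784-21975155 and 103 bases from a CDKN2A start, held 8, 14 and 14 FRA1 counts beside 2 in A375 cells. The peak held 0 counts in the 3 FRA1 libraries and the IgG library of 1205Lu cells, which allows up to 3 counts in each library, and 27 of all 54563 peaks held 0 in these 4 libraries.

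**Figure D3:**
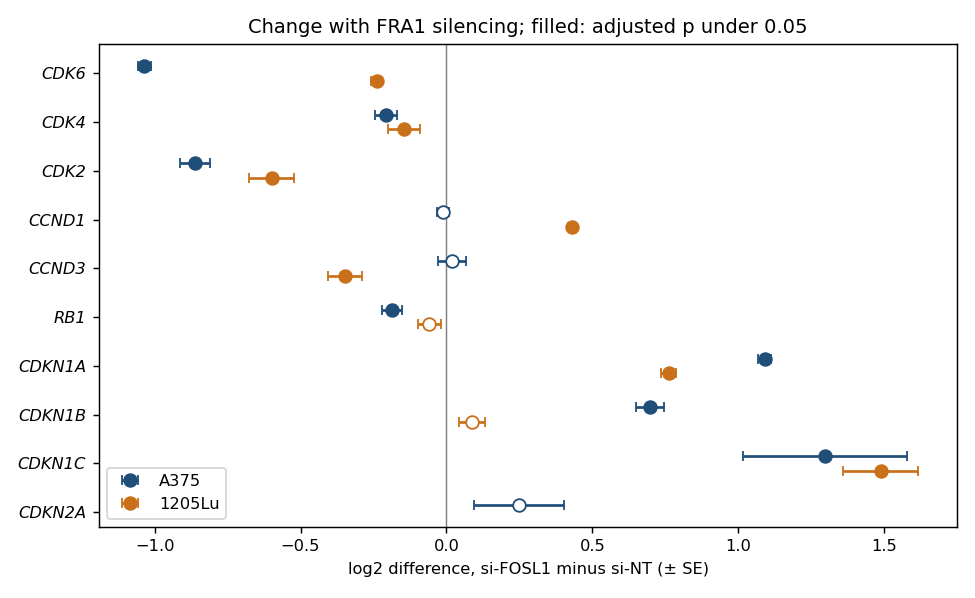
Log2 difference (horizontal axis, si-FOSL1 minus si-NT) with its SE for the 10 genes in A375 (blue) and 1205Lu cells (orange), filled where the adjusted p was under 0.05. CDK6 is at -1.03 in A375 and -0.24 in 1205Lu cells, CDKN1A at 1.09 and 0.76, and CDKN2A was not tested in 1205Lu cells.

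The other genes of the pathway were a list of 35, among them the E-type and A-type cyclins, E2F factors, the remaining INK4 inhibitors and regulators of cyclin and inhibitor stability. In A375 cells 34 were tested, of which 6 rose, 17 fell and 11 did not pass, where 25.7% of all genes tested rose and 25.1% fell, and their median log2 difference was -0.14. In 1205Lu cells 34 were tested, of which 6 rose, 15 fell and 13 did not pass, where 20.6% and 19.9% of all genes did, and their median was 0.01. All genes tested had medians of -0.0026 and -0.0048. Of the 34 tested, 17 were called in both lines, 13 of them lower in both, 2 higher in both and 2 opposite. Of all 15056 genes tested in both lines, 1625 (10.8%) were called lower in both, 1564 (10.4%) higher in both and 1334 (8.86%) opposite. Whether the list differs from other genes was not tested.

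The 13 that fell in both lines are given first. E2F2, an activator E2F, differed by -1.40 ± 0.19 (SE) in A375 and -0.91 ± 0.15 in 1205Lu cells, and E2F1 by -0.53 ± 0.11 and -0.65 ± 0.09. E2F8, an atypical repressor of the family, differed by -0.82 ± 0.11 and -0.88 ± 0.06. SKP2, the ubiquitin ligase subunit that targets p27 for degradation, fell by 0.77 and 0.75, and its cofactor CKS1B by 0.28 and 0.40, on the log2 scale. CCNE2 fell by 0.45 and 0.48, CCNA2 by 0.23 and 0.50, CDK1 by 0.20 and 0.67, and MYBL2 by 0.53 and 0.52. CCNE1, the other E-type cyclin, was called in neither line and is named after its values were seen. It differed by -0.03 ± 0.17 (adjusted p = 0.9) in A375 and 0.25 ± 0.10 (adjusted p = 0.067) in 1205Lu cells. RBL1, a pocket protein related to RB1, fell by 0.41 and 0.39, TFDP1, the DNA-binding partner of E2F, by 0.46 and 0.23, and CDC25A, the phosphatase that activates CDK2, by 0.41 and 0.22. CDKN2C, the INK4 inhibitor p18, also fell, by 0.97 ± 0.06 and 1.58 ± 0.10, while CDKN1A and CDKN1C rose in both lines and CDKN1B in A375 cells. E2F5, a repressor E2F, rose by 0.45 and 0.71, and CDK7, the CDK-activating kinase, by 0.12 and 0.30.

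MYC, an activator of cyclin D2 and CDK4 transcription, had opposite calls, with -0.88 ± 0.06 in A375 (adjusted p = 2.9e-11) and 0.24 ± 0.03 in 1205Lu cells (adjusted p = 7.8e-06). TFDP2, a further E2F partner, differed by -0.15 ± 0.06 and 0.34 ± 0.06. FBXW7, the ligase subunit that targets cyclin E and MYC, rose by 0.84 ± 0.05 in A375 cells, and in 1205Lu cells the value was 0.10 ± 0.06 (adjusted p = 0.16). AMBRA1, an adaptor for the degradation of D-type cyclins, rose by 0.36 ± 0.04 in 1205Lu cells, and in A375 cells the value was 0.11 ± 0.05 (adjusted p = 0.07). CCND2, the remaining D-type cyclin, is named after its values were seen. It fell from 168.5 ± 4.07 to 86.8 ± 1.96 CPM in A375 cells (SD, n = 3, log2 difference -0.96 ± 0.03, adjusted p = 9e-18), while 1205Lu cells had 18 to 28 counts per sample in both groups. CDKN2B, the INK4 inhibitor next to CDKN2A, had at most 6 counts in any sample and was not tested.

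**Figure D4:**
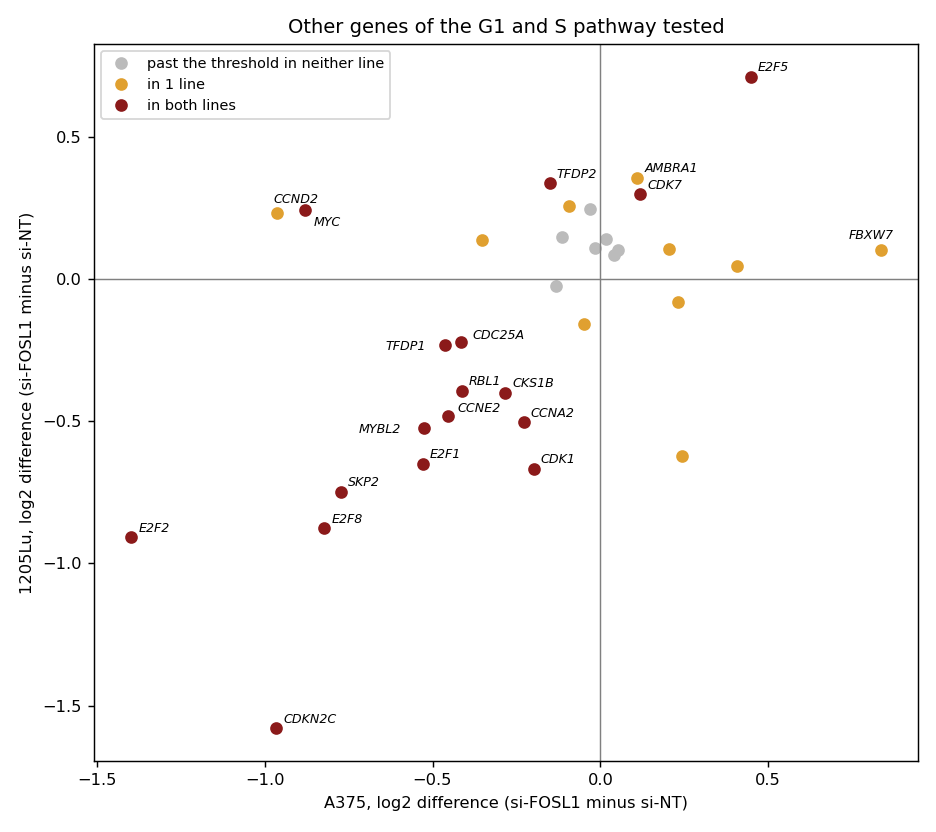
Log2 difference with silencing in A375 (horizontal axis) and 1205Lu cells (vertical axis) of the 34 pathway genes tested, coloured by whether the adjusted p was under 0.05 in neither, 1 or both lines. Of the 17 called in both, 13 lie at the lower left, with CDKN2C at -0.97 and -1.58, and MYC lies left of 0 and above 0.

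With si-NT the lines differed in the level of each of the 10 genes, where 78.0% of all genes tested were called, and each condition is 1 cell line. The log2 difference, A375 minus 1205Lu, was 4.32 ± 0.35 for CDKN2A (4.21 ± 0.568 against 0.202 ± 0.117 CPM, SD, n = 3, from 89 to 117 against 3 to 8 counts) and -2.75 ± 0.21 for CDKN1C. It was 1.32 ± 0.05 for CDK2, 0.89 ± 0.04 for CDK4, 0.54 ± 0.04 for RB1 and 0.21 ± 0.05 for CCND3. It was -1.47 ± 0.02 for CCND1, -0.66 ± 0.05 for CDKN1B and -0.23 ± 0.02 for CDK6. For CDKN1A it was 0.07 ± 0.03 (adjusted p = 0.031), which did not pass with a minimum of 10 counts in every sample (0.154) or without 1205Lu si-NT replicate 2 (0.0584).

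Per kb of exon, the order in A375 cells with si-NT was CCND1 (71.7 ± 0.746 CPM per kb, SD, n = 3), CDKN1A (61.5), CDK6 (38.3), CDK4 (31.4), RB1 (17.8), CDK2 (14.8), CCND3 (9.18), CDKN1B (4.04), CDKN2A (1.08) and CDKN1C (0.354). In 1205Lu cells with si-NT it was CCND1 (188.6), CDKN1A (55.8), CDK6 (42.8), CDK4 (16.1), RB1 (11.7), CCND3 (7.53), CDKN1B (6.06), CDK2 (5.62), CDKN1C (2.28) and CDKN2A (0.0521). No neighbours in these orders overlapped over their 3 samples. The length used is the union of exons over all transcripts of a gene. For CDKN1B it is 9255 bases, while the 3′UTR of its canonical transcript has 1342, so its level per kb may be understated. How the order depends on the transcripts used was not tested. With si-FOSL1 CDKN1A stood first in A375 cells, at 131 ± 1.15 CPM per kb against 71.4 ± 1.06 for CCND1, and CDK4 (27.3) stood before CDK6 (18.8 ± 0.396). In 1205Lu cells with si-FOSL1 CDKN1B (6.51), CDKN1C (6.47) and CCND3 (6.00) overlapped as neighbours, and CCND1 stood first at 257 CPM per kb.

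Relative to the TMM-scaled total in peaks of their library, FRA1 counts differed between the lines in 25 of the 42 peaks tested near these genes. Of these, 11 were higher in A375 and 14 in 1205Lu cells, where 29.0% and 24.3% of all peaks tested were called. Here 1205Lu FRA1 replicates 2 and 3, whose counts differed by no more than about sampling noise, were counted as 1 sample. With these replicates as separate samples, 10 of 39 peaks were higher in A375 and 14 in 1205Lu cells, and the median log2 difference over all peaks was 0.275. Without scaling between the same 6 libraries, 34 were higher in A375 and 2 in 1205Lu cells and that median was 2.94, so the split rests on the scaling. Of the 14 higher in 1205Lu cells, 3 were enriched over IgG there, 5 were enriched in A375 cells only and 6 in neither. Those 3 were CDK6 intron peaks chr7:92717724-92718680, at -3.81 ± 0.19 (SE, A375 minus 1205Lu), and chr7:92632900-92634113, at -1.50 ± 0.21, and the CDK2 and RAB5B peak, at -0.76 ± 0.22. Of the 11 higher in A375 cells, 9 were enriched there, among them the CCND3 intron peak at 3.30 ± 0.32 and the strongest CDK6 peak at 1.09 ± 0.21.

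**Figure D5:**
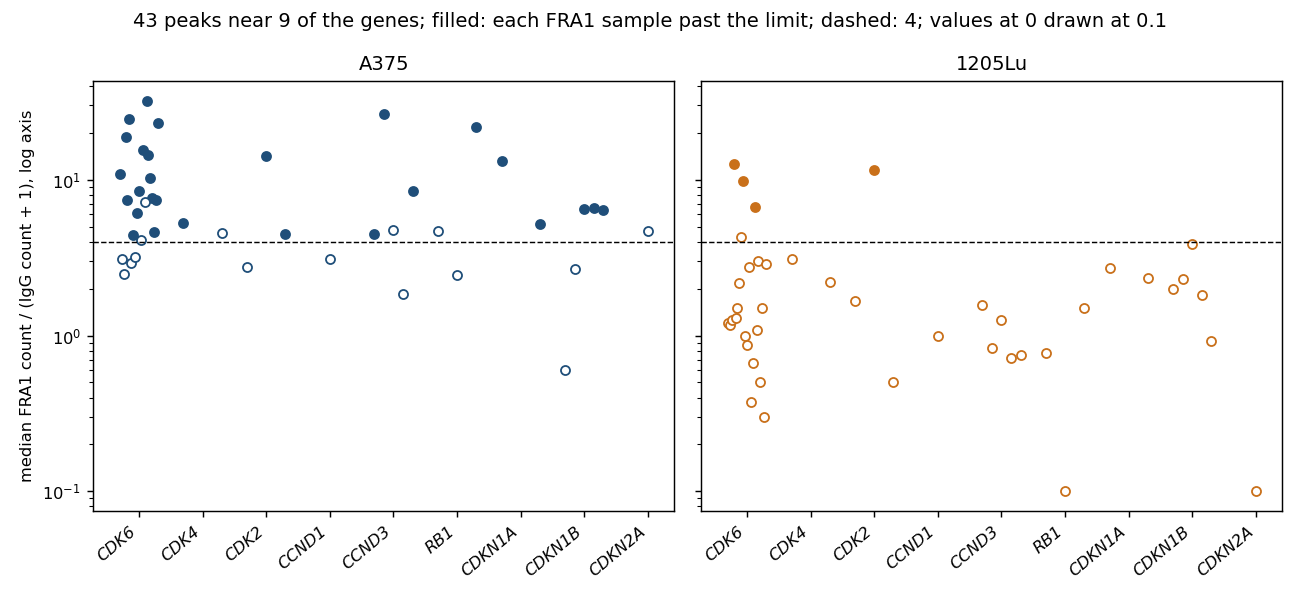
Median FRA1 count divided by the IgG count plus 1 (vertical axes, log scale) for the 43 peaks near 9 of the genes, by gene, in A375 (left) and 1205Lu cells (right), filled where each FRA1 sample met the limit of 4 (dashed) and 10 counts. In A375 cells 27 points are filled and in 1205Lu cells 4, and values at 0 are drawn at 0.1.

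RefSeq promoters, from 250 bases before to 50 after a start, were at hand for 7 of the 10 genes in 11 sequences, and none of the 11 held TGAGTCA or TGACTCA on either strand, which 4.95% of 35116 promoters did. As siRNAs can lower other transcripts that match a short stretch of the guide in their 3′UTR, the sequences of 7 bases in the FOSL1 coding sequence were searched in 3′UTRs of 12559 genes. Of 726 such sequences, the one whose holders ranked lowest by their medians in both lines together, CCGGCCG, was in 2.49% of them and in no member. The next, GAGTAGC, was in 13.0% of them. Its holders had median log2 differences of -0.11 in A375 and -0.06 in 1205Lu cells, against 0.03 and 0.02 for the others. The ranking used these medians of the holders, so that they are low is no result of its own. Holders and others were not matched for 3′UTR length. By the medians of each line alone, CCGGCCG ranked 7 in A375 and 2 in 1205Lu cells, and GAGTAGC ranked 44 and 1. Among the members CDK6 alone held it, 1 copy in a 3′UTR of 10219 bases, as gtgagcaaaatGAGTAGCacatcagtaat with the 7 bases in capitals. Of genes with a 3′UTR of like length, 54.2% held it, and its part in the fall of CDK6 was not tested.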

How the data were processed

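RNA-seq was performed on 12 samples and Cut&Run on 8. Per the labels and the methods of the study, reads were trimmed with cutadapt 1.8.1, RNA reads were aligned with STAR 2.7.7a and quantified with RSEM 1.3.0, and Cut&Run reads were aligned with Bowtie2 2.4.1, with peaks from MACS2 2.1.1.20160309 and annotation from ChIPseeker 1.32.1. The authors deposited RSEM expected counts per gene, which were whole numbers with no normalization, and read counts per consensus peak for each Cut&Run library. The strand setting of the counting, and if replicates were pooled for peak calling, is not given in the sources used here. Coordinates are GRCh38, with gene models from GENCODE 44.

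Genes were tested in edgeR 4.0.16 (R 4.3.3) by the quasi-likelihood test after filterByExpr and TMM normalization, 6 samples per cell line for silencing, the 6 si-NT samples for the comparison of the lines and all 12 for the interaction, with Benjamini-Hochberg adjustment over all genes tested and a threshold of 0.05. CPM were set on 1 TMM scale over the 12 samples. Peaks were tested likewise between the lines. FRA1 replicates 2 and 3 of 1205Lu were within sampling noise of each other (ratio of chi-square to degrees of freedom 1.01) and were counted as 1 sample. In A375 cells this ratio was 1.25 for replicates 1 and 2, 1.07 for 1 and 3 and 1.1 for 2 and 3. They were kept as 3 samples, although their spread may be technical too. Intervals and limits for a count of 0 cover counting error only. The tests of silencing, of the interaction and of peaks between the lines were tried on simulated data, the last with 3 samples per line. The comparison of the lines with si-NT was not. Sequences were read with Python 3.11.15 and pysam 0.24.0, intervals came from scipy 1.17.1, and promoters are from RefSeq (GRCh38.p14).

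The members and lists were chosen with earlier results of these data known. The 10 genes and FOSL1 were named in full, and other pathway genes if called in both lines or, failing that, if among the 2 largest or 2 smallest called differences of a line. The 5 genes most like CDK6 were named, and per gene the enriched peaks with the highest median in each line and each enriched promoter peak. Alternatives were DESeq2 1.42.0, other normalizations, filters, fits and limits, a replicate block, and leaving out each sample.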

Additional observations from a re-analysis of the deposited data

Results flagged for a closer look

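The response to silencing differed between the cell lines by the interaction test of edgeR (adjusted p under 0.05) for 7 of the 10 genes, where 31.9% of all genes tested did, and the values are the log2 difference in 1205Lu cells minus that in A375 cells. Among the kinases this was 0.81 for CDK6 and 0.27 for CDK2, among the cyclins 0.45 for CCND1 and -0.36 for CCND3, and for RB1 it was 0.14. Among the inhibitors it was -0.32 for CDKN1A and -0.60 for CDKN1B. Of the 34 pathway genes tested, 14 differed. MYC (1.14), CCND2 (1.2), TFDP2 (0.50), E2F4 (0.50), WEE1 (0.36), AMBRA1 (0.26) and TFDP1 (0.24) had positive values. CDKN2D (-0.86), FBXW7 (-0.72), CDKN2C (-0.60), CDK1 (-0.46), MNAT1 (-0.35), E2F7 (-0.30) and CCNA2 (-0.26) had negative values. CDKN2D, E2F4, WEE1, MNAT1 and E2F7, like CCND2 and CCNE1, lie outside the rule for named genes and were added after their values were seen. FOSL1 itself was left at 6.19% of its control in A375 and 14.0% in 1205Lu cells, and the part of this difference in the values above was not tested.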

How the results depend on the processing

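Of 496 alternatives for 39 gene results, 473 kept the direction and the side of the threshold, 17 lost the call and 6 reversed the direction, and 32 results kept both throughout. Each reversal was in a result that was not called. CCND1 in A375 cells became 0.0046 with upper-quartile normalization, 0.014 with a minimum of 1 count in total and 0.0012 without si-FOSL1 replicate 2 (from -0.022 over the samples left out), and CCND3 became -0.024 without that replicate (up to 0.046). The CDKN2A interaction became -0.28 without 1205Lu si-NT replicate 1 and -0.015 without A375 si-NT replicate 3 (up to 0.63). A fold limit left 3, 1, 0 and 4 members called in A375, 1205Lu, the interaction and the comparison of the lines, 939, 536, 990 and 7265 of all genes, and 1 pathway gene in each line. Of the 27 peaks over IgG in A375 cells, 11 remained in number at 8 times IgG, 0 after scaling to totals in peaks and 5 with a start within 3 kb, while 50 were counted within 50 kb. In place of 4 in 1205Lu cells there were 8 at 2 times IgG, 1 at 8 times, 0 after scaling and 1 with a start within 3 kb. Leaving out 1 sample gave 22 to 26 differing peaks, 27 to 33 peaks over IgG in A375 and 4 to 5 in 1205Lu cells. The causes were not tested. Samples of the same replicate number share no stated source, and their deviations correlated between -0.07 and 0.12, not always best with their own number. With the replicate block, 8614, 6746 and 6029 of all genes were called in A375, 1205Lu and the interaction, beside 8593, 6941 and 6205, and 7 members in each. The 1205Lu FRA1 libraries had medians of 5 to 6 counts per peak, which limits what can be seen there.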

Other observations

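At the CDKN2A locus, a peak inside CDKN2B-AS1 at chr9:22051949-22053044 held 91, 142 and 113 FRA1 counts beside 6 IgG counts in 1205Lu cells and 0 in the 3 FRA1 libraries and the IgG library of A375 cells, which allows up to 3 counts in each. The CDKN2A peak at chr9:21974784-21975155 showed the reverse, with 0 in the 4 libraries of 1205Lu cells. Of 54563 peaks, 21 were at 0 in all 4 libraries of A375 cells and 27 in those of 1205Lu cells. No cause was tested.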
